A study of Drosophila melanogaster with 8 samples.

Results

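The genes described here are 7 genes of peptidergic cells, dimm, amon, 7B2, Phm, Nplp1, Nplp2 and sNPF, chosen by symbol from the 17321 genes in the deposited tables. All 7 had a value in each of 8 libraries, made from RNA of whole Drosophila melanogaster embryos of stages 8 to 16. Upper and lower case were kept apart, since Phm encodes an enzyme of peptide amidation and phm a different enzyme, of ecdysteroid synthesis. Quad embryos carried da-Gal4 and UAS transgenes for the transcription factors ase, Kr, wor and SoxN (n = 2). Their control, Ctrl, carried da-Gal4 over OregonR (n = 2). QuadD embryos carried da-Gal4 and UAS transgenes for ase-Vp16, Kr, wor-EnR and SoxN-EnR, in which ase is joined to an activation domain and wor and SoxN to a repression domain (n = 2). Their control, Ctrl-D, again carried da-Gal4 over OregonR (n = 2). The da-Gal4 driver, which is active in nearly all embryonic cells, was thus shared by all 4 groups. The OregonR background was that of the controls alone, so strain and transgenes cannot be told apart.

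Peptidergic neurons and neuroendocrine cells make neuropeptides as long precursors that enter the secretory pathway and are packed into dense core vesicles. There the prohormone convertase encoded by amon cuts the precursors, with 7B2 as its helper protein, and Phm carries out the first step of C-terminal amidation. In flies, the basic helix-loop-helix factor dimm promotes this secretory state, and Phm is among its known direct targets. Nplp1, Nplp2 and sNPF encode precursors, and Nplp1 marks certain neurons of the Apterous cluster in the embryonic nerve cord.

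Each experiment was sequenced on a lane of its own, so lane and experiment cannot be told apart, and tests stayed within an experiment. The labels call the replicates biological. Relative to the deepest library, QuadD replicate 1, the libraries of the first experiment had 82.9% to 87.2% of the depth, QuadD replicate 2 had 42.5%, and the Ctrl-D libraries had 41.5% and 39.6%. As a check of the labels, ase was 1.77 and 1.60 higher on the log2 scale in Quad and QuadD than in their controls, and wor 2.00 and 2.08 higher, all past the threshold. SoxN was 0.35 higher in Quad (limma, Benjamini-Hochberg adjusted p = 0.0536; 0.50, adjusted p = 0.00529, without Quad replicate 1) and 0.41 higher in QuadD (adjusted p = 0.0162), the second call being lost without either QuadD library (0.39 and 0.43). Kr rose in Quad, with 96.1 and 109 RPKM against 46.1 and 35.2 RPKM in Ctrl. In QuadD it had 64.8 and 67.4 RPKM, against 69.2 and 57.5 RPKM in Ctrl-D, so the libraries labelled QuadD showed no rise of Kr RNA (log2 fold change 0.07, adjusted p = 0.637). Reads of a transgene and of the gene itself cannot be told apart.

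Levels are given in RPKM, which divides reads by transcript length and by the size of the library, so that genes can be compared per length. The most abundant of the 7 genes in every group was Nplp2, with group means between 754 RPKM in QuadD and 1298 RPKM in Quad. Phm came next, with means between 62.0 RPKM in QuadD and 77.8 RPKM in Ctrl. Next was 7B2, with means between 2.84 RPKM in Ctrl-D and 11.6 RPKM in Quad. The libraries of Nplp2, Phm and 7B2 did not overlap each other within any group. Below them, 7B2 and Nplp1 overlapped in Ctrl-D, Nplp1 and amon overlapped in Quad, QuadD and Ctrl-D, and sNPF had the lowest mean in all 4 groups. Overlaps were also found between amon and dimm in Ctrl-D, between Nplp1 and dimm in QuadD, and between dimm and sNPF in Quad and Ctrl-D. In Ctrl, all neighbours in the order 7B2, Nplp1, amon, dimm and sNPF were apart.

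**Figure D1:**
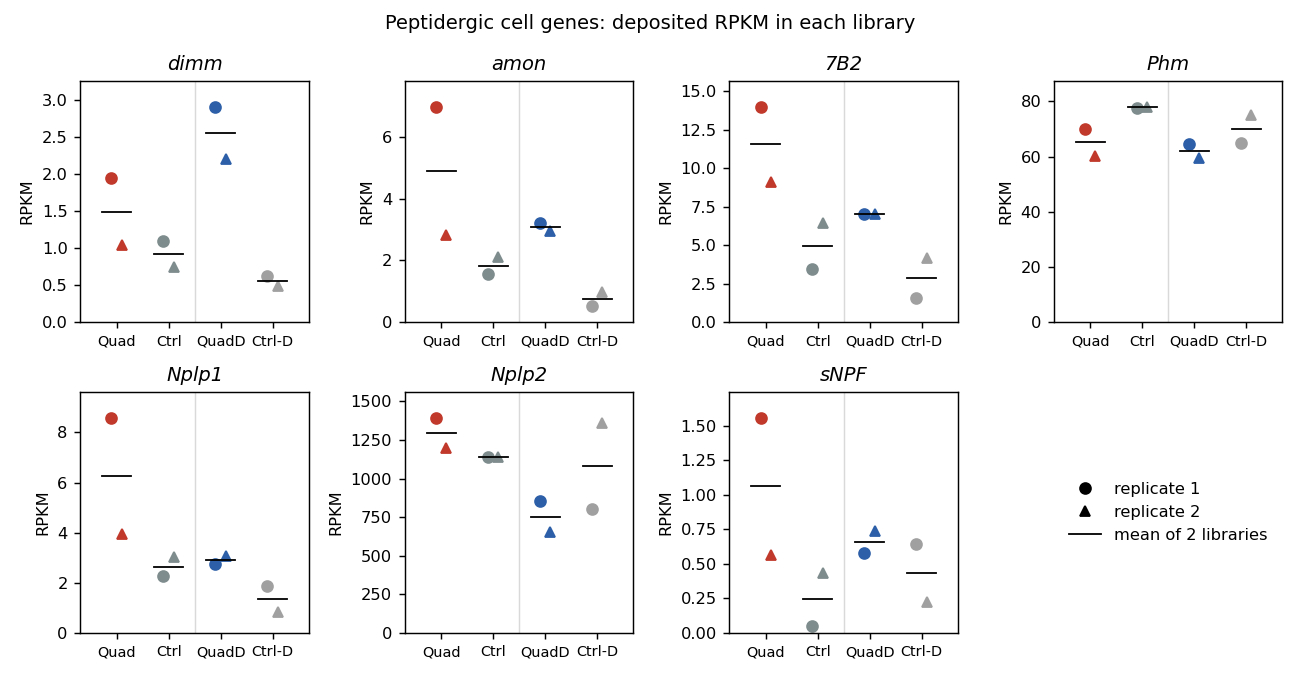
Deposited RPKM of the 7 genes (vertical axes from 0, each with its own scale) in each library, in the order Quad, Ctrl, QuadD and Ctrl-D, with replicate 1 as circles, replicate 2 as triangles and the mean of 2 libraries as a line. The dimm libraries of QuadD, at 2.90 and 2.20 RPKM, sit above those of Ctrl-D at 0.622 and 0.488 RPKM, and Quad replicate 1 lies above Quad replicate 2 for amon (6.97 and 2.81 RPKM) and Nplp1 (8.60 and 3.95 RPKM).

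Values were tested as log2(RPKM + 1) with limma, and calls were made at a Benjamini-Hochberg adjusted p under 0.05 over all genes tested. A gene was tested where it reached 1 RPKM in at least 2 libraries of the fit, which 6 of the 7 genes did in each comparison and sNPF did not. In Quad, 7B2 was called higher and the other 5 tested genes did not pass. Among all 10436 genes tested there, 47.5% were called, made up of 24.9% higher and 22.6% lower. In QuadD, dimm, amon, 7B2 and Nplp1 were called higher and Phm and Nplp2 did not pass. Among the 10207 genes tested there, 55.0% were called, made up of 27.4% higher and 27.7% lower. In QuadD, dimm and amon passed the filter through the QuadD libraries alone, so their count there is no support for a difference. By overlap, 4 of the 6 tested genes had both Quad libraries above both Ctrl libraries and Phm had both below, which 41.5% and 35.6% of all genes tested did. In QuadD these numbers were again 4 and 1, beside 42.2% above and 39.1% below over all genes tested. 7B2 was the 1 gene called in both comparisons. In bulk embryos, more cells of a type and more RNA per cell cannot be told apart, nor can fewer cells and less RNA.

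**Figure D2:**
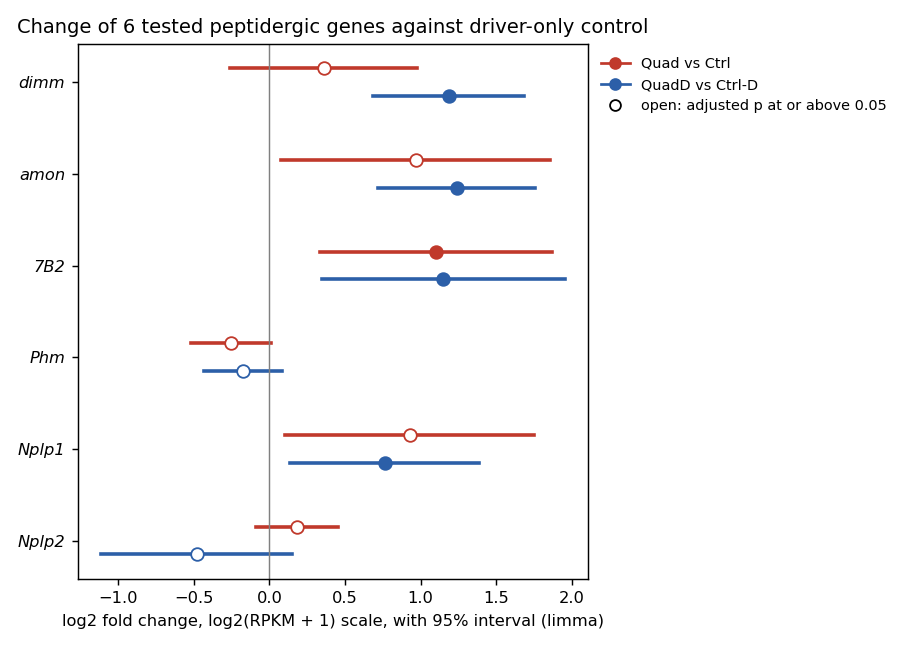
Log2 fold change with its 95% interval (horizontal axis, log2(RPKM + 1) scale) for the 6 tested genes, Quad against Ctrl in red above QuadD against Ctrl-D in blue, with filled points where the limma adjusted p was under 0.05. The intervals of dimm in QuadD (0.69 to 1.68) and in Quad (-0.26 to 0.98) overlap, and both Phm points and the Nplp2 points lie within 0.5 of 0.

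The regulator dimm rose in QuadD. It had 2.90 and 2.20 RPKM in QuadD, against 0.622 and 0.488 RPKM in Ctrl-D, and the groups did not overlap. The ratio of the means was 4.60, and the log2 fold change was 1.19 ± 0.20 (SE, limma, Benjamini-Hochberg adjusted p = 0.00452). In Quad, dimm had 1.94 and 1.04 RPKM, against 1.09 and 0.739 RPKM in Ctrl. Quad replicate 2 lay between the Ctrl libraries, so the groups overlapped, and the difference of 0.36 ± 0.26 did not pass (adjusted p = 0.285). Without QuadD replicate 1 or 2, dimm no longer reached the filter and was not tested. Since it entered the QuadD fit through the QuadD libraries alone, its values there are a description, and the call is no independent support.

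Of the processing genes, the convertase amon rose in QuadD. It had 3.21 and 2.94 RPKM in QuadD, against 0.510 and 0.971 RPKM in Ctrl-D, with no overlap and a ratio of means of 4.16. The log2 fold change was 1.24 ± 0.21 (SE, limma, Benjamini-Hochberg adjusted p = 0.00448). In Quad, amon had 6.97 and 2.81 RPKM, against 1.55 and 2.11 RPKM in Ctrl. Both Quad libraries were above both Ctrl libraries, but Quad replicate 1 was 2.49 times Quad replicate 2, and the difference of 0.97 ± 0.37 did not pass (adjusted p = 0.0707).

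The result for amon in Quad changed with 1 library. Without Quad replicate 2, the difference was 1.50 and passed (adjusted p = 0.00428). For amon, the deposited read columns hold reads in proportion to RPKM, with 301 and 127 reads in Quad libraries, against 69 and 91 in Ctrl. QuadD had 167 and 65 reads, against 11 and 20 in Ctrl-D. In limma's voom fit of such reads, amon was 2.15 higher in QuadD (adjusted p = 0.000584) and 1.25 higher in Quad (adjusted p = 0.0965). Without QuadD replicate 1 or 2, amon missed the filter and was not tested, and like dimm it entered the QuadD fit through the QuadD libraries alone.

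The convertase helper 7B2 rose in both comparisons. It had 14.0 and 9.12 RPKM in Quad, against 3.43 and 6.42 RPKM in Ctrl, and the log2 fold change was 1.10 ± 0.32 (SE, limma, Benjamini-Hochberg adjusted p = 0.0304). In QuadD it had 7.03 and 7.02 RPKM, against 1.55 and 4.13 RPKM in Ctrl-D, and the log2 fold change was 1.15 ± 0.33 (adjusted p = 0.0271). The groups did not overlap in either experiment, and the ratios of means were 2.34 and 2.47. The spread lay in different groups: the QuadD libraries were nearly equal, while Ctrl-D replicate 2 was 2.67 times Ctrl-D replicate 1. Both calls were narrow. In Quad the call was lost without Quad replicate 1 (0.82, adjusted p = 0.0749), without Ctrl replicate 1 (0.73, adjusted p = 0.136) and with no filter (adjusted p = 0.0827). In QuadD it was lost without QuadD replicate 1 (1.15, adjusted p = 0.0656), without QuadD replicate 2 (1.15, adjusted p = 0.0704) and with no filter (adjusted p = 0.0643).

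Phm, the amidating enzyme, did not pass in either comparison. It had 70.0 and 60.3 RPKM in Quad, against 77.6 and 78.0 RPKM in Ctrl. In QuadD it had 64.6 and 59.4 RPKM, against 65.0 and 75.2 RPKM in Ctrl-D. Both misexpression groups lay below their controls without overlap, in QuadD by the small gap between 64.6 and 65.0 RPKM. The log2 differences were -0.26 ± 0.11 in Quad (limma, Benjamini-Hochberg adjusted p = 0.0992, interval -0.52 to 0.01) and -0.17 ± 0.11 in QuadD (adjusted p = 0.208, interval -0.43 to 0.08). In Quad the difference passed without Quad replicate 1 (-0.36, adjusted p = 0.0205), under median-ratio scaling (-0.34, adjusted p = 0.0408) and under quantile normalization (-0.32, adjusted p = 0.0460). For comparison, the gene phm, whose symbol differs only in its first letter, rose by 1.15 in Quad and 0.86 in QuadD, the second without a call when QuadD replicate 1 (0.81), QuadD replicate 2 (0.91) or Ctrl-D replicate 2 (0.42) was left out.

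Of the precursors, Nplp1 rose in QuadD. It had 2.74 and 3.08 RPKM in QuadD, against 1.87 and 0.847 RPKM in Ctrl-D, with no overlap and a ratio of means of 2.14. The log2 fold change of 0.76 ± 0.26 was just past the threshold (SE, limma, Benjamini-Hochberg adjusted p = 0.0449). It was lost without QuadD replicate 1 (0.83, adjusted p = 0.106), QuadD replicate 2 (0.70, adjusted p = 0.169) or Ctrl-D replicate 2 (0.45, adjusted p = 0.183), and in 4 further settings given in the closing section.

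In Quad, Nplp1 had 8.60 and 3.95 RPKM, against 2.26 and 3.02 RPKM in Ctrl, again without overlap. Quad replicate 1 was 2.18 times Quad replicate 2, and the difference of 0.93 ± 0.34 did not pass (limma, Benjamini-Hochberg adjusted p = 0.0641). It passed without Quad replicate 2 (1.41, adjusted p = 0.00457). The ratio of means, 2.37, was close to that in QuadD.

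Nplp2 was abundant and did not pass in either comparison. It had 1396 and 1201 RPKM in Quad, against 1139 and 1142 RPKM in Ctrl, so both Quad libraries were above Ctrl by a small margin (0.18 ± 0.11, limma, Benjamini-Hochberg adjusted p = 0.217). In QuadD it had 857 and 651 RPKM, against 801 and 1357 RPKM in Ctrl-D. There the groups overlapped, and the Ctrl-D libraries differed 1.69 times (-0.48 ± 0.26, adjusted p = 0.160). Without Ctrl-D replicate 1 the difference was -0.86 and passed (adjusted p = 0.0136).

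The precursor of short neuropeptide F, sNPF, stayed near or below 1 RPKM. It had 1.56 and 0.564 RPKM in Quad, against 0.052 and 0.431 RPKM in Ctrl, resting on 29 and 11 reads against 1 and 8 reads. In QuadD it had 0.581 and 0.736 RPKM, against 0.647 and 0.226 RPKM in Ctrl-D, from 13 and 7 reads against 6 and 2. The groups were apart in Quad and overlapped in QuadD. With no filter, the differences were 0.71 in Quad (limma, Benjamini-Hochberg adjusted p = 0.143) and 0.22 in QuadD (adjusted p = 0.392), and voom on the reads gave 2.33 in Quad (adjusted p = 0.0867). No difference of sNPF was detectable at this depth. Its receptor gene sNPF-R did not exceed 0.631 RPKM in any library.

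The effects in both experiments were compared in a fit of all 8 libraries, as the change in QuadD minus the change in Quad. None of the 6 tested genes passed, while 2.7% of 10775 genes did (limma with Benjamini-Hochberg adjustment). The unadjusted p was under 0.05 for 1 of them, dimm, whose difference was 0.83 ± 0.35 (adjusted p = 0.285, interval 0.04 to 1.61). The difference was 0.27 for amon, 0.05 for 7B2, -0.16 for Nplp1 and 0.08 for Phm, and -0.66 for Nplp2 (adjusted p = 0.351). The intervals ran from -0.79 to 1.34 for amon, from -1.12 to 1.22 for 7B2 and from -1.24 to 0.91 for Nplp1. Differences within these bounds are not excluded.

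Between the driver-only groups, Ctrl-D and Ctrl, none of the 6 tested genes passed and no unadjusted p was under 0.05, while 1.23% of all genes tested passed. The log2 difference was -0.71 for amon (limma, Benjamini-Hochberg adjusted p = 0.220), -0.66 for 7B2 (adjusted p = 0.280) and -0.65 for Nplp1 (adjusted p = 0.252). Their changes in Quad, at 0.97, 1.10 and 0.93, were not much larger, so levels of Quad and QuadD were not set against each other directly.

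Neuron markers were higher as well in both comparisons. Of 10 neuron markers, para stayed under 1 RPKM in every library. Of the other 9, 4 were called higher in Quad and 8 in QuadD, with none lower. Over all genes tested, 24.9% and 27.4% were called higher. The vesicle chaperone gene Csp rose by 0.96 in Quad and 1.09 in QuadD, and the neuronal RNA-binding protein gene elav by 0.73 and 1.10. Summed over the list, neuron markers had 822 and 605 RPKM in Quad, against 445 and 416 RPKM in Ctrl, and 849 and 875 RPKM in QuadD, against 431 and 420 RPKM in Ctrl-D. Over all 10 markers, para included, the median was 0.98 above the Ctrl mean on the log2 scale in Quad replicate 1. In Quad replicate 2 it was 0.23 above. Relative to the Ctrl-D mean it was 0.92 and 0.89 higher in the QuadD libraries. For amon, differences from the mean log2 value of its controls were 1.50 and 0.43 in Quad and 1.29 and 1.19 in QuadD. For Nplp1 they were 1.41 and 0.45 in Quad and 0.70 and 0.83 in QuadD. Quad replicate 1 was thus the higher Quad library for the markers as for both genes. Among the controls the marker sums were close to each other, but sums mostly reflect the most abundant markers. Between Ctrl-D and Ctrl, the log2 differences of the 9 tested markers ranged from -1.23 to 0.38. Their median was -0.33, with Syt1 (-1.23) and brp (-0.81) at the low end and Csp (0.38) and Syx1A (0.19) higher. None passed. That test took its spread from all 8 libraries, the unequal Quad replicates included. Missing the threshold therefore does not show that the driver-only groups were alike in neuron markers. For 7B2, the Ctrl libraries differed 1.87 times and the Ctrl-D libraries 2.67 times. The part of the neuron content in the changes of dimm, amon, 7B2 and Nplp1 was not tested. Without Quad replicate 2, 9 neuron markers were called higher in Quad, and without either Ctrl library 3 were.

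**Figure D3:**
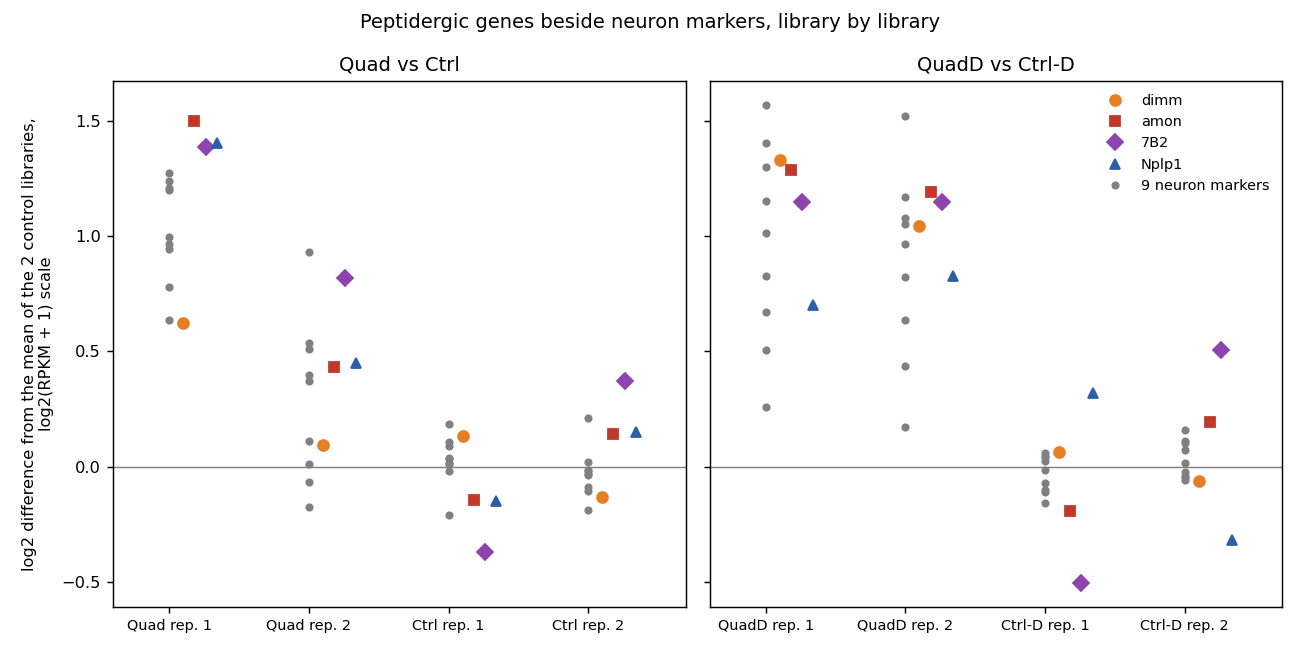
Log2 difference of each library from the mean of the 2 control libraries of its experiment (vertical axis, log2(RPKM + 1) scale) for dimm, amon, 7B2 and Nplp1 (coloured symbols) and 9 neuron markers (grey dots), with Quad and Ctrl in the left panel and QuadD and Ctrl-D in the right. In Quad, replicate 1 lies above replicate 2 for all 4 genes (1.50 and 0.43 for amon), and in QuadD both replicates are at similar heights (1.29 and 1.19 for amon).

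Markers of other tissues moved as well. Over all genes tested, 24.9% were called higher and 22.6% lower in Quad, and 27.4% and 27.7% in QuadD. Of 8 epidermis and cuticle markers, 7 fell in each comparison, with sums of 90.9 and 73.0 RPKM in Quad, against 967 and 1304 RPKM in Ctrl, and 24.9 and 21.1 RPKM in QuadD, against 638 and 843 RPKM in Ctrl-D. The eighth, the cuticle protein gene Cpr47Ef, rose by 1.45 in Quad (limma, Benjamini-Hochberg adjusted p = 0.00805) and did not pass in QuadD (0.43). The 8 muscle markers fell in QuadD, while in Quad none passed and replicates were apart, with sums of 3622 and 1809 RPKM, against 3059 and 4389 RPKM in Ctrl. Without Quad replicate 1, 8 muscle markers were called lower in Quad as well, and without Ctrl replicate 1, 1 was. Without Quad replicate 2, none was called lower there and 1, bt, was called higher. Fat body and hemocyte markers fell in 4 of 6 tested genes in Quad and 5 of 6 in QuadD. Another, the scavenger receptor gene Sr-CI, rose by 0.57 in Quad (adjusted p = 0.0224), though not without Ctrl replicate 1 (0.60) or 2 (0.53), and was among those that fell in QuadD (by 0.82, adjusted p = 0.0108), though not without QuadD replicate 2 (-0.60). Glia markers rose in 5 of 7 in Quad (3 without Quad replicate 1 or Ctrl replicate 1, and 2 without Ctrl replicate 2) and in 3 of 7 in QuadD (1 and 2 without QuadD replicates 1 and 2). The glutamine synthetase gene Gs2, also on the glia list, fell by 1.06 in Quad and by 2.78 in QuadD (adjusted p = 0.00123 and 4.14e-05). The glial gene wrapper fell by 1.34 in QuadD (adjusted p = 0.000969) and did not pass in Quad (0.35, adjusted p = 0.161; 0.00513 without Quad replicate 2). Of 4 tested ring gland and ecdysteroid markers, 2 rose and 1 fell in Quad, and 3 rose and 1 fell in QuadD, where 1 to 3 rose when 1 library was left out. Eaat1 of the glia list in both comparisons, and knk, TwdlD and jhamt in QuadD, reached the filter through the group where they were higher. The part of these tissues in the levels of Phm and Nplp2 was not tested.

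The 7 genes were set beside each other over the 8 libraries, after the mean of its experiment was taken from each value. Pearson's r was 0.93 between amon and 7B2, 0.87 between dimm and amon and 0.87 between amon and Nplp1 (n = 8 libraries). It was 0.76 between dimm and Nplp1, 0.72 between 7B2 and Nplp1 and 0.71 between dimm and 7B2. For Phm it was -0.44 with both amon and 7B2, -0.47 with dimm and -0.60 with Nplp1. For Nplp2 it was -0.41 with dimm, -0.30 with Nplp1, -0.10 with amon, 0.06 with 7B2 and 0.52 with Phm. These values describe libraries that share groups and lanes. The sparse sNPF reads are left out of these values, although the r of sNPF with Nplp1, 0.94, was the highest of all pairs.

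By the same measure, the genes of most similar pattern were sought among 4504 named genes that reached 10 RPKM in each experiment. The measure takes no account of the size of a change, and all were picked for likeness over these same libraries. For dimm these were na, a sodium leak channel gene (r = 0.988), twit (0.988) and hiw, a synaptic ubiquitin ligase gene (0.985). For amon they were PyK, for pyruvate kinase (0.996), nrv3, for a subunit of the sodium pump (0.994) and CanB, for a calcineurin subunit (0.993). CanB also came first for 7B2 (0.954), followed by Bsg25D (0.948) and nAChRbeta1, for an acetylcholine receptor subunit (0.947). For Nplp1 they were Ext2 (0.955), CASK (0.954) and Lim3, for a homeodomain factor of motor neurons (0.954).

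Closest to Phm were mys, the beta integrin gene of muscle attachment (r = 0.993), Myd88, for the adaptor of Toll signalling (0.983), and ko (0.967). In Quad, mys had 124 and 104.3 RPKM, against 141 and 147 RPKM in Ctrl, and in QuadD 119 and 108 RPKM, against 119 and 140 RPKM in Ctrl-D. It followed Phm in which library of each group was the higher, but it was picked for likeness over these same libraries. For Nplp2 the values were lower, 0.944 for PDCD-5, 0.897 for FKBP59 and 0.890 for ubl.

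Among 8 further enzymes of peptide processing, 1 fell and none rose in Quad, and 2 rose and 2 fell in QuadD. Over all genes tested, 24.9% were called higher and 22.6% lower in Quad, and 27.4% and 27.7% in QuadD. The median log2 change of the 8 was 0.02 in Quad and -0.21 in QuadD, against 0.05 and 0.03 over all genes tested. Pal2, a lyase for the second amidation step, had 4.15 and 3.50 RPKM in QuadD, against 0.523 and 1.25 RPKM in Ctrl-D, and rose by 1.38 ± 0.25 (limma, Benjamini-Hochberg adjusted p = 0.00515). Its relative Pal1, far more abundant, had 117 and 120 RPKM in QuadD, against 148 and 133 RPKM in Ctrl-D (-0.25, adjusted p = 0.0507; 0.0202 without Ctrl-D replicate 2). The furin gene Fur1 rose by 0.79 in QuadD (adjusted p = 0.00877). The glutaminyl cyclase gene isoQC fell in both comparisons (by 0.82 in Quad, adjusted p = 0.00466, and by 0.72 in QuadD, adjusted p = 0.00274). The cytochrome gene nemy fell by 0.73 in QuadD (adjusted p = 0.00186). Without Quad replicate 1, 3 of these 8 genes were called lower in Quad, and without Quad replicate 2, 1 was called higher.

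Of 47 further peptide precursors, 46 had a symbol in the tables, and most lay under the filter, with 19 tested in Quad and 18 in QuadD. In Quad 6 rose and 2 fell. Mip, the precursor of myoinhibitory peptides, had 18.5 and 9.83 RPKM in Quad, against 2.08 and 2.73 RPKM in Ctrl, and rose by 2.10 ± 0.31 (limma, Benjamini-Hochberg adjusted p = 0.00293). AstA, an allatostatin precursor, had 3.99 and 2.09 RPKM in Quad, against 0.291 and 0.600 RPKM in Ctrl, and rose by 1.45 (adjusted p = 0.00842). In these genes, Quad replicate 1 was the higher library, as it was for amon, 7B2 and Nplp1. Burs, a subunit of the hormone bursicon, rose by 1.28 (adjusted p = 0.0165), though not without Ctrl replicate 2 (1.21, adjusted p = 0.0723). The insulin-like gene Ilp6 fell by 0.56 (adjusted p = 0.0140) and did not pass when Ctrl replicate 1 (-0.52) or 2 (-0.60) was left out. The count of 6 was 2 without Quad replicate 1, 1 without Quad replicate 2 and 3 without either Ctrl library, and Mip was among them each time. The count of 2 that fell was 0 or 1. In Quad, AstA, AstC, Burs and Proc reached the filter through the Quad libraries alone, and CNMa, which fell, through the Ctrl libraries alone. They were thus not tested when 1 library of that group was left out, which lowered the counts. These counts therefore give no support either way.

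In QuadD, 9 of the precursors rose and 3 fell. Mip had 8.50 and 9.51 RPKM in QuadD, against 1.29 and 2.10 RPKM in Ctrl-D (1.91 ± 0.21, limma, Benjamini-Hochberg adjusted p = 0.000908). AstC, another allatostatin precursor, rose by 1.78 (adjusted p = 0.00126) and CCHa1 by 1.61 (adjusted p = 0.00284). The QuadD libraries of Mip were close to each other, unlike those of Quad. The count of 9 fell to 1 and 2 without QuadD replicate 1 and 2, when fewer genes reached the filter, and to 4 both times with the genes of the full fit kept, a choice made after seeing the data. Leaving out a Ctrl-D library gave 5 for replicate 1 and 6 for replicate 2. The median change of the tested precursors was 0.29 in Quad and 0.52 in QuadD, but AstA, AstC, Burs, CCHa1 and Nplp3 reached the filter in QuadD through the QuadD libraries alone, so counts and medians give no support here.

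Nplp3, a precursor named in the same way as Nplp1 and Nplp2, was found in QuadD alone. It had 9.56 and 10.1 RPKM in QuadD, from 69 and 31 reads, and was listed at the lowest value of its table, with 0 reads, in all 6 libraries of Quad, Ctrl and Ctrl-D. Against a floor of 3 reads over Ctrl-D as a whole, it was at least 19.0-fold higher in QuadD. The difference of effects passed (limma, Benjamini-Hochberg adjusted p = 0.000357). It was the 1 precursor of 23 tested to do so. Without QuadD replicate 1 or 2, Nplp3 no longer reached the filter, and none of the 21 and 20 precursors then tested passed. As it entered the fits through the QuadD libraries alone, its calls give no independent support.

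Receptors for peptides were mostly low, with 15 of 40 tested in Quad and 10 in QuadD. In Quad 2 rose and 3 fell, and in QuadD 2 rose and 4 fell. Lgr1, a receptor of the glycoprotein hormone family, had 0.164 and 0.330 RPKM in Quad, against 3.58 and 3.29 RPKM in Ctrl, and 0.424 and 0.178 RPKM in QuadD, against 2.34 and 2.94 RPKM in Ctrl-D. It fell by 1.83 and 1.49 (limma, Benjamini-Hochberg adjusted p = 0.00110 and 0.00236). AkhR, the receptor of adipokinetic hormone, a regulator of fat body stores, fell by 1.32 and 1.35 (adjusted p = 0.00436 and 0.00240). The receptor kinase gene tor rose in Quad, with 4.40 and 3.32 RPKM against 0.542 and 0.891 RPKM in Ctrl (1.50, adjusted p = 0.00327). In Quad no receptor was called lower without either Ctrl library and none was called higher without Quad replicate 1. In QuadD no receptor was called lower without either Ctrl-D library, when 5 were tested, and none was called higher without either QuadD library or Ctrl-D replicate 2. In Quad, all 5 called receptors reached the filter through the group where they were higher: tor and NPFR through the Quad libraries alone, and Lgr1, AkhR and PK2-R2 through the Ctrl libraries alone. In QuadD, the 4 that fell, Lgr1, AkhR, AstA-R1 and SPR, did so through the Ctrl-D libraries alone. With 1 library of the group so named left out, these receptors no longer reached the filter and were not tested. The counts of receptors therefore give no support. Among the smaller changes, PK2-R2 fell by 0.92 in Quad (adjusted p = 0.0112). AstA-R1 fell by 1.09 in QuadD (adjusted p = 0.00705; 0.0568 without QuadD replicate 2). Dh31-R rose by 0.66 in QuadD (adjusted p = 0.0223), which was lost without QuadD replicate 1 (0.72), QuadD replicate 2 (0.60) or Ctrl-D replicate 2 (0.58).

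Of 11 genes of dense core vesicle transport and release, 2 rose in Quad. Of 10 tested in QuadD, 7 rose and 1 fell. Their medians were 0.53 and 0.94, against 0.05 and 0.03 over all genes tested, of which 24.9% and 27.4% were called higher. Sytalpha and Sytbeta in Quad, and Sytalpha and IA-2 in QuadD, reached the filter through the Quad or QuadD libraries alone. These counts and medians therefore give no support. Rab3, for a small GTPase of secretory vesicles, had 25.8 and 24.4 RPKM in QuadD, against 7.15 and 9.50 RPKM in Ctrl-D, and rose by 1.50 ± 0.16 (limma, Benjamini-Hochberg adjusted p = 0.000868). IA-2, for a membrane protein of dense core vesicles, rose by 1.80 (adjusted p = 0.00174), having reached the filter through the QuadD libraries alone. The kinesin gene unc-104, whose motor carries such vesicles, rose by 1.35 (adjusted p = 0.00102), and the synaptotagmin gene Syt4 by 1.23 (adjusted p = 0.000611).

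In Quad, Rab3 had 33.9 and 17.5 RPKM, against 15.2 and 13.0 RPKM in Ctrl (0.75, limma, Benjamini-Hochberg adjusted p = 0.0807). IA-2 had 11.3 and 3.69 RPKM in Quad, against 1.63 and 2.53 RPKM in Ctrl (1.32, adjusted p = 0.0533). Quad replicate 1 was again the higher library. Without Quad replicate 2, both passed (1.21 for Rab3 and 2.01 for IA-2), and IA-2 also passed without Ctrl replicate 2 (1.53). The genes called there were Rph, the rabphilin gene (0.79, adjusted p = 0.0233), and Rab2 (0.28, adjusted p = 0.0341). The call for Rph was lost without Quad replicate 1 (0.64), Ctrl replicate 1 (0.75) or Ctrl replicate 2 (0.83), and that for Rab2 without Ctrl replicate 1 (0.25) or 2 (0.31). The count of 2 in Quad was 8 without Quad replicate 2, 0 without Ctrl replicate 1 and 1 without Quad replicate 1 or Ctrl replicate 2. No gene of this list passed for the difference of effects with all 8 libraries. For Rab3 that difference was 0.74, and 1.20 without Quad replicate 1. Its size thus changed with 1 library, and a difference is not excluded.

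Besides dimm, 16 genes listed under the specification of Apterous neurons were examined, and 15 were tested in each comparison. A place on this list is no evidence of a role in these neurons. In Quad 5 rose and 3 fell, and in QuadD 11 rose and 1 fell, with medians of 0.05 and 0.50. Over all genes tested, 24.9% were called higher and 22.6% lower in Quad, and 27.4% and 27.7% in QuadD. The medians of all genes were 0.05 and 0.03, so in Quad this list lay near all genes tested. The Hox gene Antp had 79.3 and 95.6 RPKM in Quad, against 54.4 and 53.6 RPKM in Ctrl, and 127 and 118 RPKM in QuadD, against 49.9 and 52.1 RPKM in Ctrl-D. It rose by 0.68 in Quad and 1.25 in QuadD (limma, Benjamini-Hochberg adjusted p = 0.00537 and 0.000211). The late temporal gene cas rose by 0.94 and 0.95 (adjusted p = 0.00639 and 0.000707). Unlike amon and Nplp1, Antp was higher in Quad replicate 2 than in Quad replicate 1. The next temporal gene, grh, fell in both, by 1.11 and 1.16 (adjusted p = 0.000559 and 0.000326).

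The early determinant kn, which acts upstream of dimm in Nplp1 neurons, rose by 0.70 in Quad (limma, Benjamini-Hochberg adjusted p = 0.00882; 0.0512 without Ctrl replicate 1) and by 0.50 in QuadD (adjusted p = 0.0162; 0.102 without QuadD replicate 1). The cofactor gene nab rose by 1.23 in QuadD, with 17.5 and 18.4 RPKM against 7.78 and 6.50 RPKM in Ctrl-D. In Quad it had 9.16 and 7.15 RPKM, against 8.73 and 6.90 RPKM in Ctrl. The cluster's name gene ap had 19.2 and 18.2 RPKM in QuadD, against 13.2 and 11.7 RPKM in Ctrl-D, and rose by 0.55 (adjusted p = 0.0133; 0.0808 and 0.0598 without QuadD replicates 1 and 2). In Quad it had 13.0 and 11.8 RPKM, against 16.4 and 13.5 RPKM in Ctrl (-0.25, adjusted p = 0.271). The difference of effects missed the threshold for nab (1.17, adjusted p = 0.0516; 0.0298 without Quad replicate 1) and ap (0.80, adjusted p = 0.0897). It passed for tup, the Islet factor gene, which fell by 0.50 in Quad and rose by 0.54 in QuadD (difference 1.04, adjusted p = 0.00314), though its fall in Quad did not pass without Ctrl replicate 1 (-0.42, adjusted p = 0.111). The count of 5 in Quad fell to 2 and 3 when Ctrl replicate 1 and 2 were left out, and that of 11 in QuadD was 6 without either QuadD library.

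**Figure D4:**
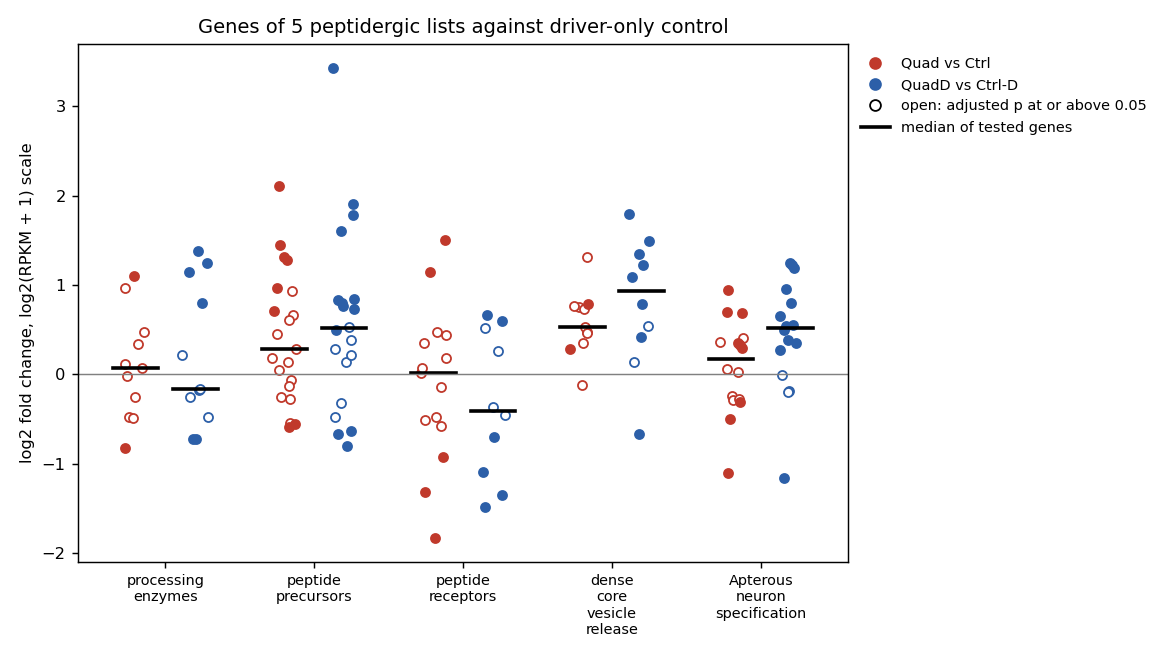
Log2 fold change (vertical axis, log2(RPKM + 1) scale) of each tested gene in 5 lists, the 7 described genes included where they belong, with Quad against Ctrl in red left of QuadD against Ctrl-D in blue, filled where the limma adjusted p was under 0.05, and the median of tested genes as a line. The point at 3.43 is Nplp3 in QuadD, whose control libraries hold 0 reads, so that this fitted value is no bound. The dense core vesicle genes have medians of 0.53 in Quad and 0.94 in QuadD. Some of them reached the filter through the group where they were higher.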

How the data were processed

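Per the labels' protocols, RNA of 8 whole-embryo libraries, 2 per group, came from 50 mg collections and was read as single reads of 50 bp. Each experiment has 1 table, in which the authors deposited total RPKM, linear and as log2 RPKM. The deposited raw count columns are incomplete. In the first table, 2791 of 7660 genes that reach 10 RPKM hold 0 reads, and in the second 2739 of 7462, while 414 genes hold a dash. RPKM was therefore the measurement, and the sums of deposited reads (2765722 to 6740835 per library) are not the depth. Counts proportional to RPKM (within 1% or rounding) were found for 7866 genes, amon and sNPF among them, and gave relative depth and a voom alternative. The lowest listed RPKM are 0.002 and 0.003 in the 2 tables. How the authors aligned and counted reads, the build and whether strand was used is not given in the sources used here. Exons of dimm, amon, 7B2, Nplp1, Nplp2 and sNPF share no base with another gene in Ensembl release 115, and those of Phm share 3 with Sox14.

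Log2(RPKM + 1) was tested with limma 3.58.1 (R 4.3.3), using the trended moderated test. A gene entered a fit where 2 or more of its libraries had 1 RPKM. Benjamini-Hochberg adjustment ran over all genes of the fit, with calls under 0.05. Tests against a control used 4 libraries, and the difference of effects and Ctrl-D against Ctrl used all 8. Fold changes on this scale understate the change of low genes. Intervals are 95%. Read numbers are given without an interval, and they vary between libraries of a group as well as by counting. The procedure was tested on simulated data in which few genes changed, all of them raised and none of low level. That simulation therefore does not cover low genes such as dimm and sNPF, nor changes in as many genes as here. Members and gene lists were chosen with earlier results of these data known. Named besides the 7 genes were up to 4 called genes of smallest p per list and comparison, up to 3 neuron markers, the 3 most similar patterns per gene and the transgenes. Pal1, sNPF-R, phm, Cpr47Ef, Sr-CI, Gs2, wrapper, bt and genes named for how they reached the filter, and ap and tup beyond the comparisons that named them, were chosen after their values were seen. Alternatives were other pseudocounts, filters, scalings and fits, a replicate block, and each library left out in turn.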

Additional observations from a re-analysis of the deposited data

Results flagged for a closer look

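Of 10775 genes tested, 291 passed for the difference of effects, and 6 of these are named in the text. For them, the change in QuadD differed from the change in Quad by the test of the difference itself (limma, Benjamini-Hochberg adjusted over all genes tested). The difference was 3.43 on the log2 scale for Nplp3, which was read in the QuadD libraries alone, so its fitted size is no bound and, without either QuadD library, it was not tested. It was 1.04 for tup, which rose in QuadD and fell in Quad. It was -1.26 for Kr, 1 of the 4 transgenes, which rose in Quad and did not pass in QuadD although both labels name it. Among markers of other tissues it was -1.71 for Gs2 and -1.69 for wrapper, both of the glia list, and -1.39 for Sr-CI, of the fat body and hemocyte list. The call for wrapper was lost without Ctrl replicate 1 (-1.67) or 2 (-1.72). That for Sr-CI was lost without either Ctrl library (-1.42 and -1.35), either Ctrl-D library (-1.40 and -1.38) or QuadD replicate 2 (-1.16). With 2 libraries per group, no library could be tested as an outlier within its group.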

How the results depend on the processing

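Of the 7 genes, 1 was called in Quad and 4 in QuadD. In Quad the count was 0 with no filter and with voom, 2 with median-ratio scaling, 3 with all 8 libraries in the fit, 4 with quantile normalization, and 0 to 3 when 1 library was left out. In QuadD it was 2 with no filter, 1 with a filter at 5 RPKM and 1 with voom, which could test 1 gene, and 0 to 5 when 1 library was left out (2 without either QuadD library with the genes of the full fit kept, a setting chosen after seeing the data, in which the left-out library had still helped to choose those genes). Nplp1 in QuadD lost its call with a pseudocount of 0.1 (1.14, adjusted p = 0.0597), no filter (0.76), median-ratio scaling (0.72) and all 8 libraries (0.76), while amon (1.19) and Nplp1 (1.16) in Quad gained one with quantile normalization and with all 8 libraries (0.97 and 0.93). Quantile normalization also moved the median of all genes in QuadD to 0.145. The causes were not tested.

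Genes called in Quad numbered 4956 of 10436 tested, 2256 of 4619 with voom and 2444 to 5325 when 1 library was left out, and in QuadD 5618 of 10207, 2307 of 4136 with voom and 3293 to 5128 (2797 and 3292 without a QuadD library, genes of the full fit kept). For the difference of effects they were 291, 186 with no filter and 126 to 495 with 1 library left out, and for Ctrl-D against Ctrl 133, 78 with no filter, 30 with no trend and 4 to 983. None of the 7 genes was called in either of these 2 comparisons under any setting run. With 1 library left out, the lone library of a group is assumed to vary like the others. Directions that changed were all of uncalled values. The difference of effects of Nplp1 was 0.011 with a pseudocount of 0.1. Leaving out 1 library, this difference ranged from -0.26 to 0.81 for amon, from -0.46 to 0.55 for 7B2, from -0.023 to 0.19 for Phm and from -0.64 to 0.31 for Nplp1. Nplp2 between Ctrl-D and Ctrl ranged from -0.51 to 0.25, and Kr in QuadD from -0.066 to 0.20.

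The labels do not say that replicate numbers mark a shared batch, and same-numbered libraries did not deviate together (correlation -0.04 in Quad and Ctrl, -0.09 in QuadD and Ctrl-D). With the replicate number as a block, 1 and 4 of the 7 genes were called as before, and 4729, 5339, 174 and 11 genes in the 4 comparisons. sNPF rests on 1 to 29 reads per library, and QuadD replicate 2 and both Ctrl-D libraries had 42.5%, 41.5% and 39.6% of the depth of QuadD replicate 1. The voom alternative could not be fitted for genes whose deposited reads are partial, which include dimm, 7B2, Phm, Nplp1 and Nplp2.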
